A study of Mus musculus with 11 samples.

Results

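Pericentral and periportal zonation markers are genes that hepatocytes express at one end of the liver lobule and not, or far less, at the other. The set held 10 symbols: Glul, Oat, Rhbg, Cyp2e1, Cyp1a2 and Axin2 as 6 pericentral markers, and Gls2, Hal, Sds and Pck1 as 4 periportal markers. A member was read from a probe set annotated to its symbol alone, and where a gene had several, from the one brightest on average across the 11 arrays. All 6 pericentral markers and 2 periportal markers, Hal and Pck1, were measured in this way, 8 of 19938 genes tested in all. Gls2 and Sds were not analysed here.

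Blood enters the lobule at the portal tract and leaves at the central vein, and hepatocytes along the way divide the work. Those at the portal end make urea and glucose and break down amino acids. Those around the central vein capture remaining ammonia as glutamine and carry much of the cytochrome P450 machinery, under Wnt/beta-catenin signals that come largely from the endothelium of the central vein. Bile flows the other way and leaves at the portal tract, where the ducts lie.

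Total RNA of tumour-free liver was profiled on Affymetrix arrays from male mice aged 14 months. There were 3 arrays of wild type C57BL/6 mice, 4 of Mdr2-KO mice and 4 of Mdr2-KO/IL6-KO mice, which lack interleukin 6 as well as Mdr2. Mdr2, encoded by Abcb4, moves phosphatidylcholine into bile, and both knockout groups lack it. The knockout labels give no strain, and how either allele was made was not given in the sources used here. Values are the deposited log2 levels. They compare arrays within a gene, not genes with each other.

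Every pair of arrays was alike (Pearson r from 0.976 to 0.990 over probe sets), and array medians lay between 5.09 and 5.23. Abcb4 averaged 9.83 ± 0.105 on the wild-type arrays (SD, n = 3) against 7.74 ± 0.194 for Mdr2-KO and 8.09 ± 0.204 for Mdr2-KO/IL6-KO (SD, n = 4 each; limma adjusted p = 2.22e-06 and 6.75e-06). Il6 lay between 1.62 and 2.09 on all 11 arrays, too low to check its label. As a check of the tissue label, the hepatocyte gene Alb ran from 13.2 to 13.4 and Apoa1 from 12.8 to 13.1 over the arrays, and the fat gene Adipoq from 2.57 to 2.86. The mean log2 level of 17 bile duct cell markers, by array, ran from 6.02 to 6.11 for wild type, 6.69 to 6.82 for Mdr2-KO and 6.64 to 6.998 for Mdr2-KO/IL6-KO, and 8 and 11 of the 17 rose against wild type, where 0.948% and 2.91% of all genes rose. The mean of 12 hepatocyte markers ran from 12.20 to 12.26, 12.09 to 12.19 and 12.05 to 12.13 in the same order, so both lists stood apart from wild type in each knockout group. That of 15 fibroblast and stellate cell markers ran from 6.51 to 6.79, 7.12 to 7.27 and 7.20 to 7.46, and that of 14 endothelial markers from 6.62 to 6.80, 6.85 to 6.98 and 6.95 to 7.08, also apart. Those of 14 leukocyte markers overlapped, from 6.37 to 7.34, 6.51 to 6.97 and 6.62 to 6.74. In bulk tissue, fewer cells of a type and less RNA per cell cannot be told apart, and the part of cell composition in the values below was not tested.

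None of the 8 measured zonation markers changed past the threshold in any of the 3 comparisons. The threshold was an adjusted p under 0.05 in limma, with Benjamini-Hochberg adjustment over all 19938 genes. In Mdr2-KO against wild type 0 of 8 members were called, where 1.26% of all genes were. Against Mdr2-KO, 0 of 8 were called in Mdr2-KO/IL6-KO, with 0.00502% of all genes, and against wild type 0 of 8, with 4.19% of all genes. At an unadjusted limma p under 0.05 there was 1 member in Mdr2-KO against wild type, Axin2 (9.79% of all genes), 0 between the knockout groups (4.82%) and 1 in Mdr2-KO/IL6-KO against wild type, Cyp2e1 (15.5%). Arrays did not overlap for 2, 0 and 2 of the 8 in the same order, beside 9.13%, 2.51% and 16.3% of all genes. A count near the share over all genes shows nothing particular to the set, and missing the threshold does not show that levels were equal. Both comparisons with wild type share the same 3 control arrays.

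**Figure D1:**
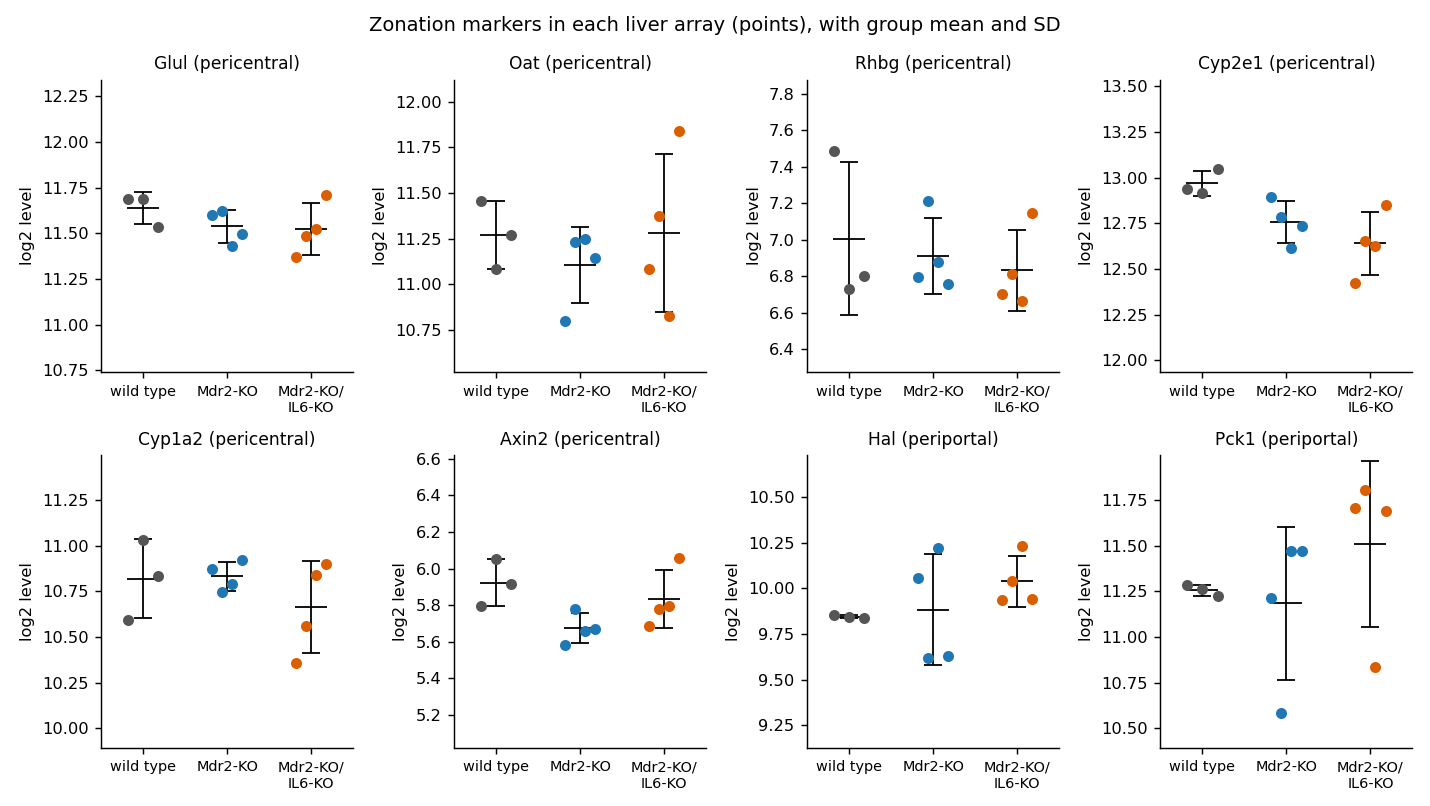
Log2 level (vertical axis) of each measured marker on each array (points), by group, with the group mean (horizontal bar) and SD (error bar). All panels span the same width in log2 units. Cyp2e1 in both knockout groups and Axin2 in Mdr2-KO lie wholly below wild type, while Pck1 and Oat are the most spread.

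Cyp2e1 and Pck1 are shown here by their promoters, because Cyp2e1 had the lowest p of any member and Pck1 the widest spread between livers. Each window is RefSeq sequence of GRCm38.p6 from 250 bases before the annotated start to 50 bases from it, printed 5′ to 3′. Capitals mark TATAAA in Cyp2e1 (chr7:140763569-140763868, + strand) and TTACGTCA, a variant of the cyclic AMP response element, in Pck1 (chr2:173152823-173153122, + strand).
Cyp2e1: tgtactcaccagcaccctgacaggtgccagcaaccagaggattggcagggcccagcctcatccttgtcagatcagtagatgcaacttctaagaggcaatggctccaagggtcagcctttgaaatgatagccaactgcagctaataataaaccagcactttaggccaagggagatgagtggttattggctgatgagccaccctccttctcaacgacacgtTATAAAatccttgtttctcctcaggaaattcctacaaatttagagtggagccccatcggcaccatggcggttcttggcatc
Pck1: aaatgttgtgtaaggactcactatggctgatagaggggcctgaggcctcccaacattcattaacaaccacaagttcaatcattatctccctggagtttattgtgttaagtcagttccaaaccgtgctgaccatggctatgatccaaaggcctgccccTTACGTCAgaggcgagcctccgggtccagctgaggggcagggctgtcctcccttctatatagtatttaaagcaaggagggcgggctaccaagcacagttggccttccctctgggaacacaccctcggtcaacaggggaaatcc

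Windows of this kind were found for 7 of the 8 measured members, all but Rhbg. That of Axin2 (chr11:108920099-108920398, + strand) lies inside the gene, whose listed start is 108917828. The search therefore did not cover the sequence before that start of Axin2. Both strands were searched for 10 motifs. The TCF/LEF letters of beta-catenin signalling were CTTTGAT, found in Hal alone of the 7 and in 3.73% of 32851 promoter windows, and CTTTGTT, in none of the 7 and 5.85% of all. Of the cyclic AMP response elements, TTACGTCA lay in Pck1 alone, starting 93 bases before the start, and in 0.499% of all windows, and TGACGTCA in none of the 7 and 1.79% of all. TATAAA lay in Cyp2e1, Cyp1a2 and, on the other strand, Hal, and in 13.6% of all windows. GCGTG, the core read by the aryl hydrocarbon receptor, lay in Hal alone and in 32.4% of all. GTTAAT, part of the HNF1 site, lay in Pck1 alone on the other strand, where it is left in lower case, and in 7.1% of all. The HNF4 letters CAAAGTCCA (0.475% of all windows) and the C/EBP letters TTGCGCAA (0.183%) and TTGCGTCA (0.49%) lay in none of the 7. No match overlapped another in these windows, and which to mark in capitals was chosen after the matches were seen. These matches describe letters in a short window and say nothing of a factor bound elsewhere.

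The members that handle ammonia at the central vein are Glul, Rhbg and Oat. Glul, glutamine synthetase, joins ammonia to glutamate. Its log2 level was 11.69, 11.69 and 11.54 on wild-type arrays, 11.60, 11.62, 11.43 and 11.50 on those of Mdr2-KO, and 11.37, 11.49, 11.53 and 11.71 on those of Mdr2-KO/IL6-KO. The groups overlapped, and the highest and the lowest of the 11 values were both in Mdr2-KO/IL6-KO. The log2 change of Glul was -0.099 ± 0.096 (SE) in Mdr2-KO against wild type, with a 95% interval from -0.31 to 0.11 (limma adjusted p = 0.854). Against wild type in Mdr2-KO/IL6-KO it was -0.11 ± 0.096 (adjusted p = 0.675), and between the knockout groups -0.015 ± 0.089 (adjusted p = 0.9995). Of the 8 measured members Glul had the narrowest spread within groups, a pooled SD of 0.111.

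Glul had a further probe set, 10350753, with a lower mean than the one used, 10374453. It read 11.02, 10.94 and 10.84 on wild-type arrays, 10.77, 10.93, 10.72 and 10.80 on those of Mdr2-KO, and 10.56, 10.73, 10.83 and 10.99 on those of Mdr2-KO/IL6-KO. Its log2 change against wild type was -0.13 for Mdr2-KO (adjusted p = 0.813) and -0.16 for Mdr2-KO/IL6-KO (adjusted p = 0.566), so both probe sets gave the same sign and neither passed. The RefSeq table also lists a glutamine synthetase pseudogene, Glns-ps1, and which copies each probe set reads was not given in the sources used here, so the level of Glul is uncertain to that extent.

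Rhbg, an ammonia transporter of the hepatocyte membrane, read 7.49, 6.73 and 6.80 on wild-type arrays, 6.80, 7.21, 6.88 and 6.76 on those of Mdr2-KO, and 6.70, 6.81, 6.66 and 7.15 on those of Mdr2-KO/IL6-KO. A single array was high in each group, and the groups overlapped. Its log2 change was -0.095 ± 0.18 (SE) in Mdr2-KO against wild type (adjusted p = 0.947), -0.17 ± 0.18 in Mdr2-KO/IL6-KO against wild type (adjusted p = 0.755) and -0.079 ± 0.17 between the knockout groups (adjusted p = 0.9995). Without wild-type replicate 1, its high array, the change in Mdr2-KO turned to 0.15 and that in Mdr2-KO/IL6-KO to 0.068.

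Oat, ornithine aminotransferase, turns ornithine toward glutamate and so feeds glutamine synthesis. It read 11.46, 11.08 and 11.27 on wild-type arrays, 10.80, 11.23, 11.25 and 11.14 on those of Mdr2-KO, and 11.08, 11.37, 10.83 and 11.84 on those of Mdr2-KO/IL6-KO. The last group spanned 1.01 log2 units and enclosed every wild-type value. The log2 change was -0.16 ± 0.20 (SE) in Mdr2-KO (adjusted p = 0.897), 0.011 ± 0.20 in Mdr2-KO/IL6-KO (adjusted p = 0.991), both against wild type, and 0.17 ± 0.18 between the knockout groups (adjusted p = 0.9995). Without Mdr2-KO/IL6-KO replicate 4 the change against wild type was -0.17.

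The cytochrome members were Cyp2e1 and Cyp1a2. Cyp2e1, which oxidises ethanol and small solvents and activates paracetamol, read 12.94, 12.92 and 13.05 on wild-type arrays, 12.89, 12.79, 12.62 and 12.74 on those of Mdr2-KO, and 12.42, 12.66, 12.63 and 12.85 on those of Mdr2-KO/IL6-KO. Every knockout array lay below every wild-type array, with Mdr2-KO replicate 1 the closest. It was 1.16-fold lower in Mdr2-KO (log2 change -0.21 ± 0.11 SE, 95% interval -0.44 to 0.017, adjusted p = 0.558). In the Mdr2-KO/IL6-KO group it was 1.26-fold lower (fitted log2 change -0.33 ± 0.11 SE, 95% interval -0.56 to -0.10, adjusted p = 0.117), and across the alternatives tried that adjusted p ranged from 0.0524 to 0.340. The arrays of both knockout groups overlapped (log2 change -0.12 ± 0.097 SE, adjusted p = 0.9995). Cyp2e1 stood at the 99.9th percentile of mean level over all genes, and how close so bright a probe set is to saturation was not tested.

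Cyp1a2 oxidises caffeine and aromatic amines and is induced through the aryl hydrocarbon receptor. It read 10.59, 11.03 and 10.83 on wild-type arrays, 10.87, 10.74, 10.79 and 10.92 on those of Mdr2-KO, and 10.36, 10.56, 10.84 and 10.90 on those of Mdr2-KO/IL6-KO. The groups overlapped, and the lowest values were those of Mdr2-KO/IL6-KO replicates 1 and 2. The log2 change was 0.013 ± 0.14 (SE) in Mdr2-KO against wild type (adjusted p = 0.991), -0.16 ± 0.14 in Mdr2-KO/IL6-KO against wild type (adjusted p = 0.685) and -0.17 ± 0.13 between the knockout groups (adjusted p = 0.9995).

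Axin2 is a direct Wnt/beta-catenin target and a scaffold of the complex that degrades beta-catenin. It read 5.80, 6.05 and 5.92 on wild-type arrays, 5.58, 5.78, 5.66 and 5.67 on those of Mdr2-KO, and 5.69, 5.78, 5.80 and 6.06 on those of Mdr2-KO/IL6-KO. All 4 Mdr2-KO arrays lay below wild type, replicate 2 only just, and Mdr2-KO/IL6-KO overlapped both other groups. It was 1.19-fold lower in Mdr2-KO (log2 change -0.25 ± 0.10 SE, 95% interval -0.47 to -0.029, adjusted p = 0.412). Against wild type it differed by -0.091 ± 0.10 (SE) in Mdr2-KO/IL6-KO (adjusted p = 0.778), and between the knockout groups by 0.16 ± 0.095 (adjusted p = 0.9995). Axin2 stood at the 54.1st percentile of mean level over all genes, and how far so low a signal can show a change was not tested.

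The periportal members measured were Hal and Pck1. Hal, histidine ammonia-lyase, releases ammonia from histidine in the opening step of its breakdown. It read 9.85, 9.84 and 9.84 on wild-type arrays, 10.06, 9.62, 10.22 and 9.63 on those of Mdr2-KO, and 9.94, 10.04, 10.23 and 9.94 on those of Mdr2-KO/IL6-KO. The Mdr2-KO arrays fell on both sides of wild type, while all 4 Mdr2-KO/IL6-KO arrays lay above it. The log2 change was 0.038 ± 0.14 (SE) in Mdr2-KO (adjusted p = 0.976) and 0.19 ± 0.14 in Mdr2-KO/IL6-KO (adjusted p = 0.608), both against wild type. The knockout groups differed by 0.15 ± 0.13 (adjusted p = 0.9995).

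Pck1, phosphoenolpyruvate carboxykinase, commits carbon to glucose synthesis and follows fasting hormones. It read 11.28, 11.26 and 11.22 on wild-type arrays, 11.21, 10.58, 11.47 and 11.47 on those of Mdr2-KO, and 11.71, 11.80, 10.83 and 11.69 on those of Mdr2-KO/IL6-KO. A single array was low in each knockout group, replicate 2 of Mdr2-KO and replicate 3 of Mdr2-KO/IL6-KO. The log2 change was -0.071 ± 0.23 (SE) in Mdr2-KO against wild type (adjusted p = 0.972), 0.25 ± 0.23 in Mdr2-KO/IL6-KO against wild type (adjusted p = 0.718) and 0.32 ± 0.22 between the knockout groups (adjusted p = 0.9995). The last difference was 0.55 without Mdr2-KO/IL6-KO replicate 3 and 0.12 without Mdr2-KO replicate 2, so its size rests on those arrays. The pooled SD of Pck1 within groups, 0.378, was at the 98.1st percentile of all genes.

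**Figure D2:**
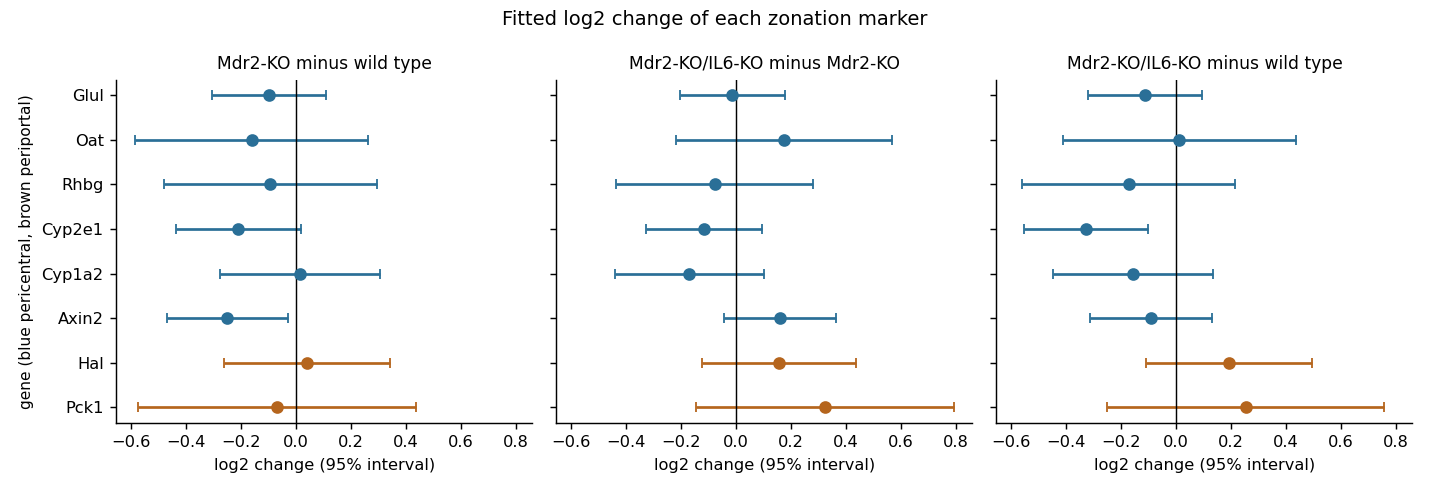
Fitted log2 change (horizontal axis) of each measured marker in the 3 comparisons, with the 95% interval from limma, not adjusted for the number of genes. The intervals of Axin2 in Mdr2-KO and of Cyp2e1 in Mdr2-KO/IL6-KO, both against wild type, lie wholly below 0.

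The intervals set how large a change these arrays could have missed. In Mdr2-KO against wild type the pericentral intervals lay between -0.59 and 0.30 on the log2 scale and the periportal ones between -0.58 and 0.44. Those of Mdr2-KO/IL6-KO against wild type lay between -0.56 and 0.43 and between -0.25 and 0.76. For the knockout groups against each other they lay between -0.44 and 0.57 and between -0.15 and 0.79. The widest interval in every comparison was that of Pck1.

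By zone, the median log2 change of the 6 pericentral members was -0.13 for Mdr2-KO and -0.14 for Mdr2-KO/IL6-KO against wild type, beside -0.0056 and -0.00056 over all genes. The 12 hepatocyte markers are a cell type list, though Alb, Trf and Tat among them are also in the wider periportal list below. They had medians of -0.055 and -0.14 in the same order, with 2 and 7 of 12 wholly below wild type. Nothing particular to the pericentral zone is read from the medians of its members. In each of these comparisons 5 of the 6 were below 0, as were 51.7% and 50.2% of all genes. In Mdr2-KO 2 of the 6 had arrays that did not overlap wild type, Cyp2e1 and Axin2, both lower, where 3.64% of all genes were lower and 5.49% higher without overlap. In Mdr2-KO/IL6-KO 1 of the 6 did, Cyp2e1, where 6.44% of all genes were lower without overlap. With the knockout groups compared, 0 of the 6 did so, beside 1.6% of all genes higher and 0.908% lower, 4 of the 6 were below 0, beside 46.1% of all genes, and the median was -0.047. For Hal and Pck1 the median was -0.016 and 0.22 against wild type in the same order and 0.24 between the knockout groups. In Mdr2-KO/IL6-KO Hal was the 1 of these 2 whose arrays lay wholly above wild type, where 9.85% of all genes did.

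The same members were averaged on each array as differences from their wild-type means, as a description with no test. The pericentral mean was -0.18, -0.041, -0.17 and -0.15 for Mdr2-KO replicates 1 to 4, and -0.33, -0.16, -0.22 and 0.15 for Mdr2-KO/IL6-KO replicates 1 to 4. All knockout arrays but the last were below the 3 wild-type arrays, which lay between -0.037 and 0.057. On Mdr2-KO/IL6-KO replicate 4, Glul, Oat and Axin2 were above every wild-type array. The mean over Hal and Pck1 was 0.086, -0.45, 0.30 and -0.00052 for Mdr2-KO and 0.27, 0.37, -0.017 and 0.26 for Mdr2-KO/IL6-KO. Mdr2-KO replicate 2, the low array, was also at the low end of the second principal component of all genes, at -25.8, with replicate 3 at the high end, 21.0. What these arrays share beyond that was not tested. With both left out, the number of members called was still 0 in each comparison.

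**Figure D3:**
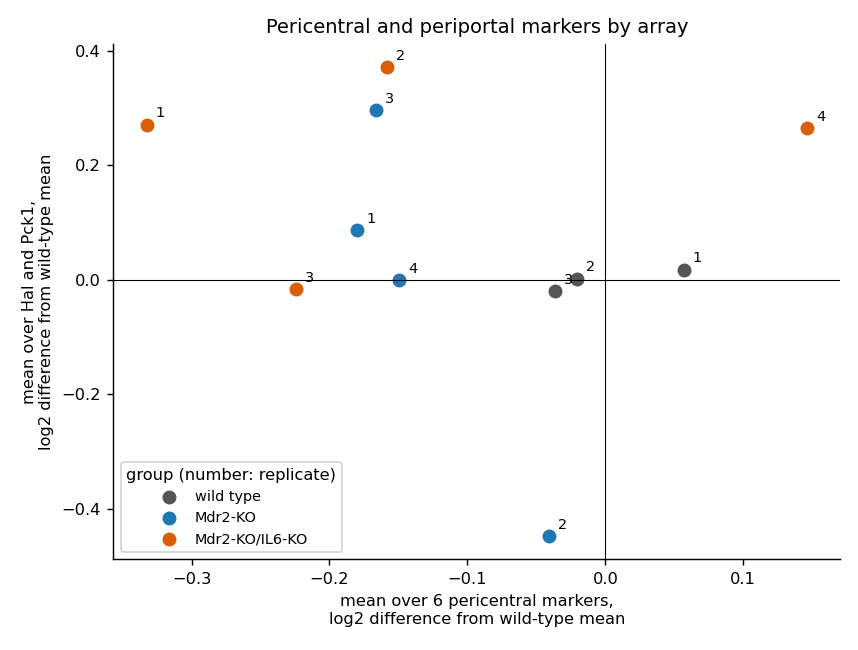
Each point is an array, numbered by replicate within its group. The horizontal axis is the mean over the 6 pericentral markers of the log2 difference from the wild-type mean, and the vertical axis the same over Hal and Pck1. Knockout arrays lie left of wild type except for Mdr2-KO/IL6-KO replicate 4, at 0.15, and Mdr2-KO replicate 2 lies lowest, at -0.45.

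Members were next compared for how they varied among livers of the same genotype, by the correlation of their deviations from group means over the 11 arrays. Of 15 pericentral pairs 13 had a positive Pearson r, with a median of 0.50 and a range from -0.29 to 0.73. With the 2 arrays farthest from the median of the first member left out of each pair, 8 of the 15 did. The 15 then had a median of 0.085 and a range from -0.45 to 0.65. Mdr2-KO/IL6-KO replicate 1, 3 or 4 was among the arrays left out of each of these pairs. Cyp2e1 with Axin2, for example, went from 0.50 to -0.21. Leaving out the farthest arrays narrows the range and can itself lower r, so how far the positive values rest on those arrays is not settled. Of 12 pairs that joined a pericentral to a periportal member 2 had a positive r, with a median of -0.16 and a range from -0.33 to 0.39, and 0 of 12 with the 2 farthest arrays left out. Hal and Pck1 had an r of 0.030, and of -0.72 without Mdr2-KO replicates 2 and 3. None of the 28 pairs passed after adjustment in an exact two-sided permutation test within groups, and 2 had an unadjusted p under 0.05. All pairs share the same arrays and their quality, and the part of array quality was not tested.

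Oat and Rhbg had the lowest p, with r = 0.697 (exact permutation p = 0.00955, adjusted p = 0.267) and Spearman's rho = 0.755 (exact permutation p = 0.00868, adjusted p = 0.243). Without the 2 arrays farthest from the median of Oat their r was 0.652. Glul and Cyp2e1 had r = 0.734 (exact permutation p = 0.0489, adjusted p = 0.608) and rho = 0.636 (exact permutation p = 0.0802, adjusted p = 0.748). Their r fell to 0.324 without the 2 arrays farthest from the median of Glul, Mdr2-KO/IL6-KO replicates 1 and 4. The narrower range can itself lower r, so how far that relation rests on those arrays is not settled.

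**Figure D4:**
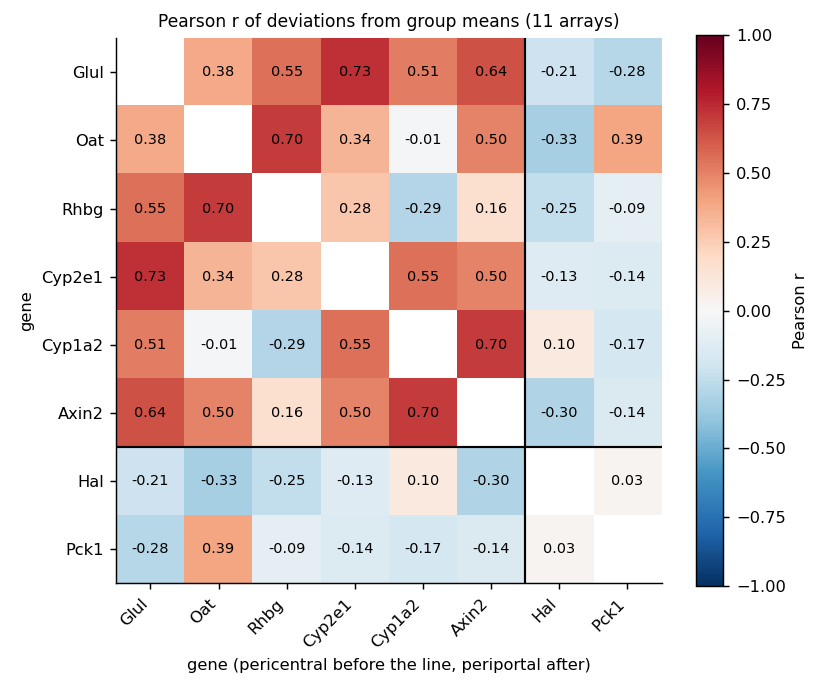
Pearson r of deviations from group means over 11 arrays for each pair of the 8 measured markers, with lines between the pericentral and the periportal members. Of the 15 pericentral pairs 13 are positive with all arrays, up to 0.73 for Glul with Cyp2e1, but 8 of 15 once the 2 farthest arrays of each pair are left out, which the plot does not show.

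The genes whose deviations most resembled those of each member were sought among the genes brighter than the median gene, 9968 for each member. Closest to Glul was Slc1a2, at r = 0.925 over 11 arrays. Slc1a2 is a glutamate transporter that marks the same layer of hepatocytes around the central vein. It read 9.68, 9.72 and 9.48 on wild-type arrays, 9.37, 9.41, 9.10 and 9.24 on those of Mdr2-KO, and 8.90, 9.21, 9.01 and 9.62 on those of Mdr2-KO/IL6-KO. As with Glul, replicate 1 of Mdr2-KO/IL6-KO was the lowest of the 11 arrays and replicate 4 the highest of its group. The log2 change of Slc1a2 was -0.35 ± 0.15 (SE) in Mdr2-KO (adjusted p = 0.449) and -0.44 ± 0.15 in Mdr2-KO/IL6-KO (adjusted p = 0.140), both against wild type.

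For the other members the closest gene was 2210016L21Rik for Oat (r = 0.949), Ntpcr for Rhbg (r = 0.902), Kank1 for Cyp2e1 (r = 0.924), Nfic for Cyp1a2 (r = 0.941), Rpain for Axin2 (r = 0.949), Wdr20 for Hal (r = 0.929) and Esam for Pck1 (r = 0.963). The next after these were Atg13 for Glul (r = 0.910), Slc25a47 for Oat (r = 0.924), Tsfm for Rhbg (r = 0.891), Prr16 for Cyp2e1 (r = 0.909), Anpep for Cyp1a2 (r = 0.940), Pgghg for Axin2 (r = 0.945), Maml3 for Hal (r = 0.921) and Slc38a4 for Pck1 (r = 0.951). Each was picked from 9968 genes over 11 arrays, so high values arise by selection alone and carry no test. Slc38a4 is an amino acid transporter of hepatocytes, and like Pck1 it was lowest in each knockout group in Mdr2-KO replicate 2, at 11.64, and in Mdr2-KO/IL6-KO replicate 3, at 11.74.

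Among 34 measured genes of a wider pericentral list, 4 fell and 0 rose in Mdr2-KO against wild type, where 0.316% of all genes fell and 0.948% rose. An unadjusted limma p under 0.05 was found for 17 of the 34 (9.79% of all genes). The cytochromes Cyp2c37, Cyp2c54 and Cyp2c50 fell 5.12-fold, 3.07-fold and 2.61-fold (limma adjusted p = 8.93e-05, 0.000926 and 0.00137), and Tbx3, a transcription factor downstream of beta-catenin, fell 1.72-fold (adjusted p = 0.0442). The call of Tbx3 held in 3 of 11 fits that each left out 1 array, those without replicate 2 of Mdr2-KO or replicate 3 or 4 of Mdr2-KO/IL6-KO, and its adjusted p was up to 0.181, without wild-type replicate 3. Arrays did not overlap wild type for 11 of the 34, all lower, where 3.64% of all genes were lower without overlap, and the list median was -0.24. Cyp2c genes are close in sequence, and signal shared between them could not be told apart here. Of the 30 genes outside the Cyp2c family 1 fell, 24 were below 0, and the median was -0.21.

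Against wild type in Mdr2-KO/IL6-KO, 7 of the 34 fell and 2 rose, where 1.28% of all genes fell and 2.91% rose. An unadjusted limma p under 0.05 was found for 22 of the 34 (15.5% of all genes). Arrays lay wholly below wild type for 12 of the 34 and wholly above for 4, beside 6.44% and 9.85% of all genes, and the list median was -0.27. Of the 30 genes outside the Cyp2c family 3 fell and 2 rose, 22 were below 0, and the median was -0.21. Cyp2c37, Cyp2c54, Cyp2c50 and Cyp2c29 fell, by between 8.21-fold and 3.41-fold. Pon1, a secreted esterase, fell 1.41-fold (adjusted p = 0.0163), Rgn, a calcium-binding lactonase of vitamin C synthesis, 1.40-fold (adjusted p = 0.0258), and Tbx3 1.59-fold (adjusted p = 0.0480). The glutathione transferases Gstm3 and Gstm1 rose 2.41-fold and 1.39-fold (adjusted p = 0.0191 and 0.0333). The call of Pon1 was lost without wild-type replicate 1 or 3 or Mdr2-KO/IL6-KO replicate 3 (adjusted p up to 0.0783), and that of Rgn without any of these or Mdr2-KO/IL6-KO replicate 1 (up to 0.119). That of Tbx3 held in 2 of 11 such fits, those without replicate 2 of Mdr2-KO or replicate 4 of Mdr2-KO/IL6-KO (up to 0.210). That of Gstm3 was lost without any wild-type array or Mdr2-KO/IL6-KO replicate 1 (up to 0.0823), and that of Gstm1 without wild-type replicate 1 or 2 or Mdr2-KO/IL6-KO replicate 1, 2 or 3 (up to 0.150). The call of Gstm1 also ended with each array centred on its median. Of the 34, 0 were called by limma between the knockout groups, 7 had an unadjusted p under 0.05 (4.82% of all genes), and Cyp2c54 and Cyp2c50 had the lowest p (log2 change -1.15 ± 0.18 and -0.77 ± 0.16 SE, adjusted p = 0.0724 and 0.411).

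Of 33 measured genes of a wider periportal list 2 rose and 1 fell in Mdr2-KO against wild type, where 0.948% of all genes rose and 0.316% fell. Cdh1, the E-cadherin of periportal hepatocytes and of bile duct cells alike, rose 3.14-fold (adjusted p = 0.000249). Etnppl, which breaks down phosphoethanolamine, rose 2.23-fold (adjusted p = 0.0110), and Itih4, an acute-phase protein, fell 1.41-fold (adjusted p = 0.0128). The call of Etnppl ended without wild-type replicate 3 (adjusted p = 0.0584), and that of Itih4 without wild-type replicate 1 or 3 (up to 0.0684). In the other comparison with wild type, that of Mdr2-KO/IL6-KO, 3 rose and 2 fell, where 2.91% of all genes rose and 1.28% fell. Cdh1, Etnppl and the arginine transporter Slc7a2 were higher, Itih4 and the lysosomal protease Ctsc lower. The call of Slc7a2 held in 2 of 11 fits that left out an array, without replicate 2 of Mdr2-KO or replicate 3 of Mdr2-KO/IL6-KO (up to 0.186, without wild-type replicate 3) and ended with median centring, and that of Ctsc ended without wild-type replicate 1 (0.0877). The list median was 0.00087 and 0.044 against wild type. For the knockout groups 0 of the 33 passed in limma and 4 had an unadjusted p under 0.05 (4.82% of all genes). The lowest p were those of Itih4 (log2 change -0.55 ± 0.080 SE, adjusted p = 0.0706) and Hsd17b13, a lipid droplet enzyme (1.09 ± 0.24 SE, adjusted p = 0.618). Bile duct cell markers, at the levels given above, moved with Cdh1 across the groups, and their part in its rise was not tested.

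**Figure D5:**
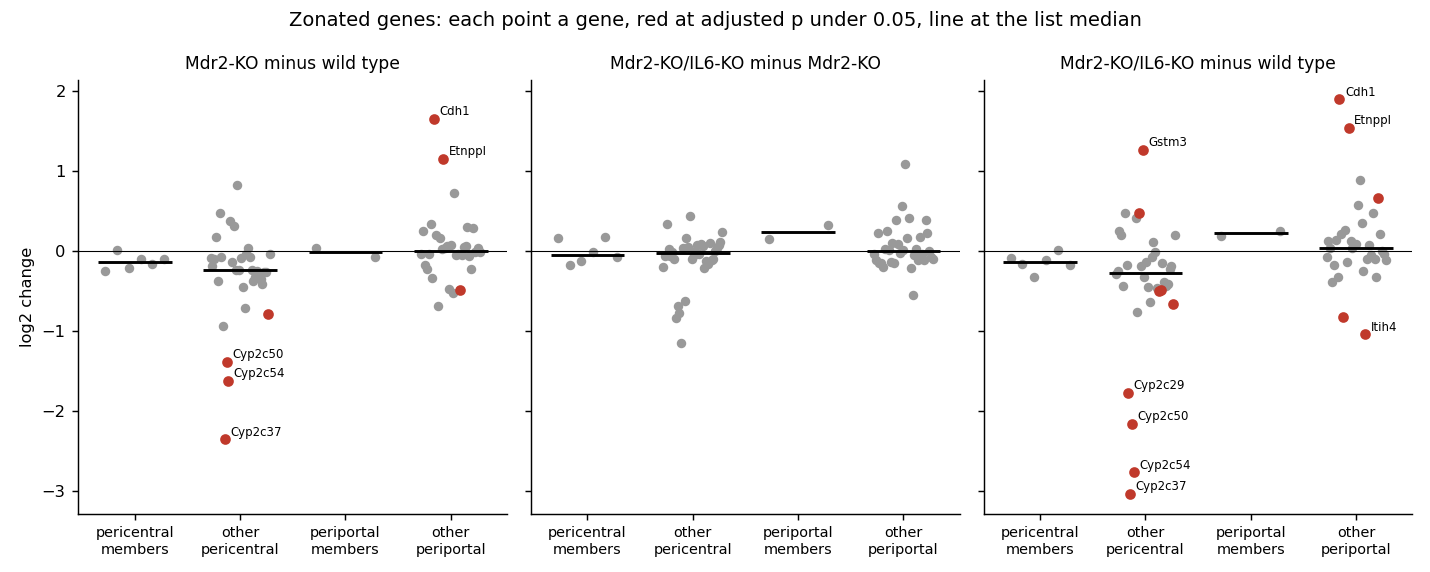
Log2 change (vertical axis) of each measured gene of 4 lists (horizontal axis) in the 3 comparisons. Red points passed an adjusted p under 0.05 in limma, and horizontal lines are list medians. The members lie within 0.33 of 0, while Cyp2c genes of the wider pericentral list reach -3.04.

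The Wnt signals that keep the pericentral program were read from 40 ligands, receptors and regulators, all measured. In Mdr2-KO against wild type 1 of 40 rose, where 0.948% of all genes did, and 5 had an unadjusted limma p under 0.05 (9.79% of all genes). In Mdr2-KO/IL6-KO against wild type 6 of the 40 had such a p (15.5% of all genes). The 1 that rose in Mdr2-KO was Dkk3, a secreted member of the Dickkopf family (log2 change 0.60 ± 0.13 SE, limma adjusted p = 0.0375). Its call held in 2 of 11 fits that left out an array, without wild-type replicate 1 or Mdr2-KO/IL6-KO replicate 4 (up to 0.172, without wild-type replicate 2). Of the 40, in Mdr2-KO/IL6-KO against wild type 3 rose and 0 fell, where 2.91% of all genes rose: Wls, the carrier that brings Wnt proteins to the cell surface (0.54 ± 0.093 SE, adjusted p = 0.00450), Dkk3 (0.63 ± 0.13 SE, adjusted p = 0.0137) and the receptor Fzd1 (0.44 ± 0.11 SE, adjusted p = 0.0327). Wls was called in all 11 such fits, Dkk3 in all but that without wild-type replicate 2 (0.0673) and Fzd1 in 6 of 11, lost without any wild-type array or Mdr2-KO/IL6-KO replicate 2 or 3 (up to 0.157, without wild-type replicate 1). The fibroblast and endothelial markers, at the levels given above, moved with these genes across the groups, and their part was not tested. Wnt2, Wnt9b and Rspo3 are in both the endothelial list and the Wnt list. Of the 40, limma called 0 between the knockout groups, and 0 had an unadjusted p under 0.05 (4.82% of all genes), with Dkk2 (log2 change 0.21 ± 0.11 SE) and Wls (0.15 ± 0.086 SE) lowest in p (adjusted p = 0.9995 for both).

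The ligands of the central vein did not pass. Wnt2 averaged 5.72, 5.91 and 5.93 over the arrays of wild type, Mdr2-KO and Mdr2-KO/IL6-KO, Wnt9b 5.13, 5.10 and 5.19, and Rspo3, which amplifies Wnt signals, 6.202, 6.02 and 6.13 (SE of each change against wild type at most 0.12, lowest adjusted p of the 3 genes 0.374). The averages of Wnt9b lay within the range of the array medians, 5.09 to 5.23. How far signals this low can show a change was not tested, so these values do not show that the ligands were unchanged. Among targets of the pathway beside Axin2, Lgr5 averaged 6.31, 5.60 and 5.68 (adjusted p = 0.0652 for Mdr2-KO and 0.0534 for Mdr2-KO/IL6-KO against wild type). By array Lgr5 read 6.03, 6.80 and 6.09 on wild-type arrays, 5.85, 5.54, 5.47 and 5.54 on those of Mdr2-KO, and 5.59, 5.55, 5.66 and 5.92 on those of Mdr2-KO/IL6-KO. Its knockout arrays were all below wild type, whose replicate 2 stood high. Notum averaged 6.98, 6.91 and 6.97, and Nkd1 6.12, 6.16 and 6.24, with adjusted p of at least 0.676. The genes of this paragraph beside Axin2, and Slc38a4, Cps1, Uroc1, G6pc and Ahr, were singled out after their values were seen.

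Of 23 measured genes of ammonia, glutamine and urea metabolism 0 passed in limma in each comparison, and 4, 1 and 6 had an unadjusted p under 0.05 in Mdr2-KO against wild type, between the knockout groups, and in Mdr2-KO/IL6-KO against wild type, beside 9.79%, 4.82% and 15.5% of all genes. Asl, an enzyme of the urea cycle, was 0.34 ± 0.13 (SE) higher on the log2 scale in Mdr2-KO (adjusted p = 0.356), and Gpt, alanine transaminase, 0.28 ± 0.12 higher (adjusted p = 0.424). Slc25a15, the ornithine carrier of mitochondria, was 0.47 ± 0.16 higher in Mdr2-KO/IL6-KO (adjusted p = 0.156). The lowest p between the knockout groups was that of the citrin gene Slc25a13 (log2 change 0.19 ± 0.084 SE, adjusted p = 0.9995), followed by Asl (-0.20 ± 0.12 SE, adjusted p = 0.9995). Cps1, which opens the urea cycle at the portal end, averaged 12.25, 12.45 and 12.46 by group, with both knockout groups above wild type on every array (adjusted p = 0.464 and 0.235).

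Beside Hal, a list of 22 measured genes was read, centred on histidine, serine and aromatic amino acid breakdown and neighbouring paths. Most of them do not follow Hal on the path of histidine. None passed in Mdr2-KO against wild type or between the knockout groups in limma, and 2 and 4 had an unadjusted p under 0.05 (9.79% and 4.82% of all genes). The lowest p were those of Cth, of cysteine synthesis, and Amdhd1 in the former (log2 change 0.39 ± 0.12 and 0.34 ± 0.10 SE, adjusted p = 0.183 and 0.191) and of Agxt, of glyoxylate removal, and Haao in the latter (-0.49 ± 0.18 and -0.21 ± 0.079 SE, adjusted p = 0.9995). Against wild type in Mdr2-KO/IL6-KO, 1 rose and 1 fell, where 2.91% of all genes rose and 1.28% fell. An unadjusted limma p under 0.05 was found for 7 of the 22 (15.5% of all genes). Amdhd1, which acts after Hal and Uroc1 on the path of histidine, read 9.55, 9.498 and 9.36 on wild-type arrays, 9.86, 9.69, 9.87 and 9.81 on those of Mdr2-KO, and 10.21, 10.13, 10.05 and 9.80 on those of Mdr2-KO/IL6-KO. Both knockout groups lay above wild type, and in Mdr2-KO/IL6-KO the rise was 0.58 ± 0.10 (SE, adjusted p = 0.00620). It was called in all 11 fits that left out an array, with an adjusted p of up to 0.0390. Uroc1, the step between, averaged 9.498, 9.54 and 9.46 and did not pass. Haao, of tryptophan breakdown, fell by 0.35 on the log2 scale (adjusted p = 0.0364), a call held in 3 of 11 such fits, those without Mdr2-KO replicate 2 or 3 or Mdr2-KO/IL6-KO replicate 4 (up to 0.126, without wild-type replicate 3) and lost with median centring.

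Around Pck1, 18 genes of glucose synthesis and fasting were measured. In Mdr2-KO against wild type 1 fell, where 0.316% of all genes did. This was the fasting hormone Fgf21, lower by 0.98 on the log2 scale (adjusted p = 0.0191, lost without wild-type replicate 3 or Mdr2-KO replicate 1, 3 or 4, up to 0.0698). For Mdr2-KO/IL6-KO against wild type 1 of the 18 rose and 1 fell, where 2.91% of all genes rose and 1.28% fell. Pdk4, which spares pyruvate, rose by 1.17 ± 0.21 (SE, adjusted p = 0.00583) and Fgf21 fell by 0.96 (adjusted p = 0.0104). Of the 18, 4 had an unadjusted limma p under 0.05 there (15.5% of all genes). The count was 2 for Mdr2-KO against wild type (9.79% of all genes). G6pc, the last step of glucose release, read 10.33, 10.93 and 11.16 on wild-type arrays, 9.03, 11.25, 10.50 and 10.56 on those of Mdr2-KO, and 10.83, 11.33, 10.21 and 11.23 on those of Mdr2-KO/IL6-KO. It overlapped between all groups, with Mdr2-KO replicate 1 lowest, and its log2 change was -0.48 ± 0.41 (SE) in Mdr2-KO (adjusted p = 0.829). Of 13 genes of the fed state, 1 was called lower in each comparison with wild type, as were 0.316% and 1.28% of all genes. This was Acacb of fatty acid synthesis control, lower by 0.94 and 1.05 on the log2 scale (adjusted p = 0.0160 and 0.00351). Its call in Mdr2-KO ended without wild-type replicate 2 or 3 (up to 0.0896). In the same order 2 and 7 of the 13 had an unadjusted limma p under 0.05 (9.79% and 15.5% of all genes). The list medians were -0.17 and -0.38, beside -0.0056 and -0.00056 over all genes. With the knockout groups compared, 0 of 18 and 0 of 13 passed in limma, and 2 and 0 had an unadjusted p under 0.05 (4.82% of all genes). The 2 were Pdk4 (log2 change 0.75 ± 0.19 SE, adjusted p = 0.657) and Angptl4, an inhibitor of lipoprotein lipase (0.68 ± 0.29 SE, adjusted p = 0.9995), and of the 13 Thrsp and Srebf1, of fat synthesis, had the lowest p (-0.62 ± 0.30 and -0.33 ± 0.19 SE, adjusted p = 0.9995). Next in p after the called genes were, in Mdr2-KO against wild type, Cpt1a of fatty acid oxidation (-0.41 ± 0.10 SE, adjusted p = 0.0790) and Me1, malic enzyme (-0.33 ± 0.12 SE, adjusted p = 0.332), and in Mdr2-KO/IL6-KO against wild type Pnpla3 (-0.42 ± 0.12 SE, adjusted p = 0.0813). When the livers were taken relative to feeding was not given in the sources used here.

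For Cyp1a2 and Cyp2e1, 13 nuclear receptors, their partners and related enzymes were read. None passed in Mdr2-KO against wild type or between the knockout groups in limma, and 4 and 2 had an unadjusted p under 0.05 (9.79% and 4.82% of all genes). The lowest p were those of Cyp1a1 and Cyp1b1 in the former (log2 change 0.36 ± 0.093 and 0.50 ± 0.15 SE, adjusted p = 0.0918 and 0.154) and of Hnf4a, a hepatocyte regulator, and Alas1, of haem synthesis, in the latter (-0.24 ± 0.11 and -0.62 ± 0.28 SE, adjusted p = 0.9995). For Mdr2-KO/IL6-KO against wild type 9 of the 13 had an unadjusted limma p under 0.05 (15.5% of all genes). After adjustment 1 rose, where 2.91% of all genes did. This was the pregnane X receptor gene Nr1i2, higher by 0.41 ± 0.098 (SE, adjusted p = 0.0314). Its call held in 5 of 11 fits that left out an array and was lost without any wild-type array or Mdr2-KO/IL6-KO replicate 1, 2 or 4 (up to 0.127, without wild-type replicate 2). Ahr, the receptor that induces Cyp1a2, averaged 8.47, 8.38 and 8.18, and Cyp1a1, another target of it, 3.95, 4.31 and 4.28 (adjusted p = 0.203 and 0.0661 in Mdr2-KO/IL6-KO against wild type).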

How the data were processed

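The authors deposited log2 levels of 35557 probe sets on 11 arrays; the submitters' processing notes name Partek and RMA, with no versions. Names came from the platform annotation, in which 21789 probe sets had 1 symbol, 1621 several and 12147 none, updated by Entrez identifier through RefSeq (GRCm38.p6). A gene was read from its probe set of highest mean, which gave 19938 genes, 19856 of them in RefSeq, with no filter. A model of group means over all 11 arrays was fitted with limma 3.58.1 in R 4.3.3, with eBayes and two-sided tests. SDs are over arrays and SEs from the model, and the number of arrays limits the precision. The scripts were tested on simulated data. The labels do not state whether 1 mouse gave 1 array, so a p-value covers only variation among these arrays. They name no batch; wild-type and knockout titles carry different prefixes, which cannot be told apart from genotype.

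The members, lists and tests were chosen with earlier results of these data known. By rule, all members were named, up to 6 called genes of each list in a comparison, filled up to 2 by lowest p, and the 2 genes most like each member. Beyond the rule, Rgn, Gstm1 and Tbx3 were named in Mdr2-KO/IL6-KO against wild type so that all 9 called genes of that list are given. Alternatives were averaged probe sets, only genes above the median gene, quantile normalization, median centring, eBayes with trend and robust, no moderation, only the 2 groups compared and leaving out each array. Chosen after seeing the data were the other Glul probe set and leaving out Mdr2-KO replicates 2 and 3.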

Additional observations from a re-analysis of the deposited data

Results flagged for a closer look

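Pck1 in Mdr2-KO/IL6-KO replicate 3, at a log2 level of 10.83, lay far below the other arrays of its group, with a gap to its neighbour of 0.882 of the group's range against a critical value of 0.829. It was the 1 such array among 16 combinations of a member and a knockout group, and chance marks about 1 group in 20.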

How the results depend on the processing

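No member was called under any alternative, and no pair of members correlated past the threshold under those run, so both counts stayed at 0, also in fits that left out each array (0 to 0). The lowest adjusted p of a member was 0.0524, for Cyp2e1 in Mdr2-KO/IL6-KO against wild type. Genes called in Mdr2-KO against wild type, 252 in all, were 43 without moderation, 138 with only the 2 groups compared, and 148 to 323 leaving out an array. Of Mdr2-KO/IL6-KO against wild type, 836 became 496 without moderation and 464 to 989 leaving out an array. Between the knockout groups the count of 1 became 4 among genes above the median gene, 2 with median centring, 2 with trend and robust eBayes, 2 without Mdr2-KO replicates 2 and 3, 0 without moderation, and 1 to 5 leaving out an array.

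Some uncalled log2 changes near 0 changed sign. Glul between the knockout groups was 0.00086 with quantile normalization. Without Mdr2-KO replicates 2 and 3, Hal was -0.00060 and Pck1 0.086 in Mdr2-KO against wild type, and Rhbg was 0.056 between the knockout groups. Leaving out an array, changes in Mdr2-KO against wild type ranged from -0.10 to 0.12 for Cyp1a2, -0.075 to 0.12 for Hal, -0.17 to 0.13 for Pck1 and -0.23 to 0.15 for Rhbg. For Mdr2-KO/IL6-KO against wild type they ranged from -0.17 to 0.16 for Oat and -0.31 to 0.068 for Rhbg. Knockout against knockout they ranged from -0.077 to 0.035 for Glul, -0.012 to 0.33 for Oat and -0.18 to 0.022 for Rhbg, and, with no change of sign, 0.12 to 0.55 for Pck1. The cause was not tested. Without moderation the list calls of Acacb, Cyp2c50, Dkk3, Etnppl, Fgf21 and Tbx3 in Mdr2-KO against wild type also ended, as did those of Ctsc, Dkk3, Fgf21, Fzd1, Gstm1, Gstm3, Nr1i2, Pdk4, Rgn, Slc7a2 and Tbx3 in Mdr2-KO/IL6-KO against wild type. With only the 2 groups compared, those of Dkk3, Fgf21 and Tbx3 in the former and of Haao and Nr1i2 in the latter ended, and without Mdr2-KO replicates 2 and 3 those of Dkk3, Etnppl and Itih4 in the former. No paired analysis was possible because the labels give no replicate numbers shared by the groups.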

Other observations

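The spread of the periportal members differed between groups in a way seen only after their values were read, and it was not tested. The 3 wild-type arrays spanned 0.016 log2 units for Hal and 0.059 for Pck1, SDs at the 0.868th and 6.82nd percentile of all genes in that group. In Mdr2-KO the spans were 0.60 and 0.89, at the 89.8th and 97th percentile, and in Mdr2-KO/IL6-KO 0.30 and 0.97, at the 56.4th and 99.3rd. Rhbg went the other way, with a span of 0.76 in wild type against 0.46 and 0.48. With 3 arrays a small SD is poorly known, and the fit gave all groups a common spread per gene.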
